A study of Mus musculus with 4 samples.

Results

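Immediate early genes are the genes that a cell switches on within minutes of a growth factor, serum or stress signal, without first making new protein. The 10 genes described here are Egr1, Fos, Fosb, Fosl1, Jun, Junb, Jund, Ier2, Ier3 and Klf6, taken by gene symbol from a table of 32592 genes. Their mRNA was read from poly(A) libraries of CCE, an embryonic stem cell line from 129/Sv mice, kept on gelatin with no feeder layer, in fetal bovine serum with leukemia inhibitory factor (LIF). The knockdown arm used the short hairpin RNAs (shRNAs) sheIF4A2-2 and sheIF4A2-3, which target the RNA helicase gene Eif4a2. The control arm used shLuc and shEV. There were 2 libraries labelled knockdown and 2 labelled control, and which shRNA each library received is not given in the sources used here. Cells of both groups were kept for 3 days in 1 µg/mL puromycin and collected on day 4.5 after infection.

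JUN proteins pair with each other or with FOS proteins through leucine zippers, and the pair, called AP-1, binds DNA. FOS proteins cannot pair with themselves. ERK kinases and the factors SRF, ELK and CREB turn these genes on, and AU-rich elements in the 3′ untranslated region (3′ UTR) give many of their mRNAs a short life. EGR1 and KLF6 are zinc finger transcription factors, IER2 is a nuclear regulator, and IER3 is a short-lived stress and survival protein rather than a classical DNA-binding factor. In embryonic stem cells the FGF to ERK route that feeds these genes is linked to exit from the naive state.

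Values are given as normalized counts, that is CPM scaled to an effective library size, and the libraries held 4604200 to 13681765 reads, with control 2 the shallowest. The labels do not state whether replicate libraries were grown separately or which shRNA each received. The p-values therefore reflect library-to-library spread alone, which may be technical or may hold a difference between shRNAs. The targeted gene Eif4a2 was at 753 and 814 normalized counts in the knockdown-labelled libraries and at 531 and 379 in the control-labelled libraries (log2 change 0.80, SE 0.15, limma adjusted p = 0.014). It therefore goes against its label, and directions below compare the libraries labelled knockdown with those labelled control, with no loss of Eif4a2 mRNA measured. The summed level of 10 embryonic stem cell markers was 9557 and 9197 in the knockdown-labelled libraries and 12600 and 12002 in the control-labelled libraries. No marker was at 0, and 4 of the 10 fell, against 12.4% of all genes tested. The summed level of 16 fibroblast markers was 225 and 256 against 236 and 261, most of it Vim. Without Vim the 15 others summed to 60.5 and 66.3 in the knockdown-labelled libraries and to 36.7 and 36.9 in the control-labelled libraries, and Fap, S100a4, Dcn and Lum were at 0 in all 4 libraries. Of the 9 fibroblast markers tested 2 rose and 0 fell, so 22.2% were called, all as higher. Of all genes tested 10.5% rose. In 7 of the 9 the log2 change was above 0, with a median of 0.58, against -0.01 over all genes tested. The part of these shifts in the results below was not tested.

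The upstream sequences of 4 members are shown because Fos, Ier3 and Klf6 passed the test, in different directions, and Junb lay next to the threshold. They come from RefSeq on build GRCm38.p6, which had a window for 7 of the 10 members, and run from base -250 to base -31 before the transcription start, on the strand of the gene. Capitals mark the core of the cAMP response element, TGACG, and the CCAAT box, on either strand.
Fos (chr12:85473640-85473859, plus strand): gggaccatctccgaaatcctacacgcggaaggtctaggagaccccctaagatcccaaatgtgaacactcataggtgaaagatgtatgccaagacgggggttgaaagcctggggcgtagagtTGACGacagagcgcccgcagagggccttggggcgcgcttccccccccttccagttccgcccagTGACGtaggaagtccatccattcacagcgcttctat
Junb (chr8:84978779-84978998, minus strand): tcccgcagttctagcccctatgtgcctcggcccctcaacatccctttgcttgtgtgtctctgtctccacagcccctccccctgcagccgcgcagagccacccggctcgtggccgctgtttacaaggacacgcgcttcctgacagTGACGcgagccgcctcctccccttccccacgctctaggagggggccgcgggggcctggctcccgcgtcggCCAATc
Ier3 (chr17:35821463-35821682, plus strand): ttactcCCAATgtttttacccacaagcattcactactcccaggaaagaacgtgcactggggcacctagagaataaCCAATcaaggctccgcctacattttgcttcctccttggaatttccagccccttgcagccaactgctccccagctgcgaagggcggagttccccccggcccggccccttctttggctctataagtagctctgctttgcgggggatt
Klf6 (chr13:5861239-5861458, plus strand): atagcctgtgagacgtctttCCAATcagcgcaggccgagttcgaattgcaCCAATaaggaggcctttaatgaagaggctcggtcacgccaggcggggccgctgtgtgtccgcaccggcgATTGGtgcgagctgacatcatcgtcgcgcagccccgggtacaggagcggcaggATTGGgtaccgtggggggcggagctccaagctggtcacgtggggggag

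TGACG was found in 3 of the 7 windows (Fos with 2 copies, Junb and Fosb with 1 each), against 14.8% of all 32851 windows of the same length in the RefSeq table. CCAAT was found in 4 of the 7 (Klf6 with 4 copies, Ier3 with 2, Jun and Junb with 1 each), against 31.0%. The GC box, GGGCGG, was in 5 of the 7 windows against 28.5%. The whole cAMP response element TGACGTCA, which contains TGACG, was in 0 of the 7 against 1.14%, the AP-1 site TGANTCA in 0 against 6.12%, and the CArG box that SRF binds in 0 against 1.30%. The EGR site GCGNGGGCG, which can overlap a GC box, was in 1 of the 7 (Fosb) against 3.74%. All motifs were searched on both strands. The RefSeq window of Jund starts from a site 1210 bases upstream of its start in GENCODE M21 and is not shown. That window is counted among the 7 and held none of these motifs. Egr1, Fosl1 and Ier2 had no window. Sequence outside the windows was not searched, so these counts do not show that a promoter lacks a motif.

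The 3′ UTR of most members carries the AU-rich heptamer TATTTAT, part of the element through which the decay factor ZFP36 binds mRNA. On the longest coding transcript in GENCODE M21 there were 4 copies in Ier3, 2 each in Fos and Klf6, and 1 each in Fosb, Fosl1, Jun and Jund, and none in Egr1, Junb and Ier2. At least 1 copy was present in 29.2% of 13073 protein-coding genes tested. One stretch of 30 bases is shown for each of 4 members that passed the test, with the heptamer in capitals, on build GRCm38.
Ier3 (chr17:35822484-35822513, plus strand): ctaattaaTATTTATgTATTTATgtatatc
Fos (chr12:85477102-85477131, plus strand): gtgttttcaattTATTTATtaagatggatt
Klf6 (chr13:5868489-5868518, plus strand): agctacgtctctTATTTATgccttgaggac
Jund (chr8:70700358-70700387, plus strand): ccgattccgcccTATTTATgtttctactcg

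In Ier3 2 copies lie within the stretch. Of these 4 genes Ier3, Fos and Jund rose and Klf6 fell, as described below. Among all 3817 genes tested that hold the heptamer 10.4% rose and 13.7% fell, against 10.5% and 12.4% of all genes tested.

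The comparison asks how the immediate early genes stood in the knockdown-labelled libraries against those labelled control, and the members moved in both directions. Egr1 fell 3.501-fold and Klf6 fell 1.61-fold, while Jund rose 1.87-fold, Fos 1.92-fold and Ier3 1.91-fold. Junb, Jun, Ier2 and Fosl1 did not pass the test, and Fosb had too few reads to be tested. In all, 9 of the 10 members passed the filter on low counts, and 3 rose and 2 fell at a limma adjusted p below 0.05. Of the 14890 genes tested, 23.0% were called, 10.5% as higher and 12.4% as lower. For 7 of the 9 members the knockdown-labelled and control-labelled values were separate, against 66.8% of all genes tested. Fold changes are on the scale of log2(normalized count + 1), which understates the change of low genes, and with 2 libraries on each side the smallest exact permutation p is 0.333. In bulk RNA, fewer cells that express a gene and less of its RNA per cell cannot be told apart.

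**Figure D1:**
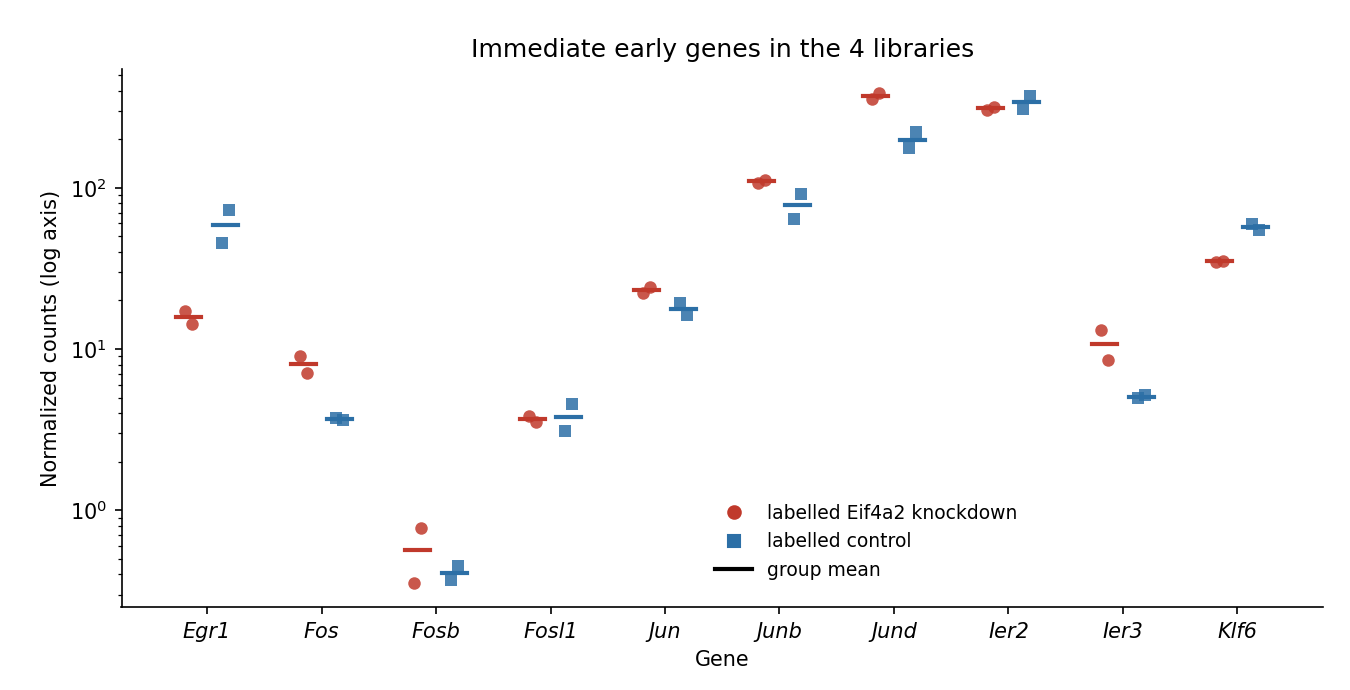
Normalized counts (log axis) of the 10 genes in each of the 4 libraries, with circles for the libraries labelled Eif4a2 knockdown, squares for those labelled control, and bars for group means (n = 2 each). Egr1 and Klf6 are lower, and Fos, Jund and Ier3 higher, in both libraries labelled knockdown than in both labelled control; the levels span from below 1 for Fosb to 384 for Jund.

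Egr1 (ENSMUSG00000038418, chromosome 18, 34859823 to 34864984, plus strand of GRCm38), a zinc finger factor and classic ERK target, showed the largest change among the members. Egr1 stood at 17.2 and 14.3 normalized counts in the knockdown-labelled libraries, against 45.6 and 72.4 in the control-labelled libraries. Both knockdown-labelled values lie far below both control-labelled values, and control 2 is well above control 1. Egr1 averaged 15.8 ± 2.05 in the knockdown-labelled libraries and 59.0 ± 18.9 in the control-labelled libraries (SD, n = 2 each), with a log2 change of -1.81 (SE 0.22, 95% interval -2.32 to -1.30, limma adjusted p = 0.00441). These values rest on 194 and 184 reads in the knockdown-labelled libraries and 620 and 320 in the control-labelled libraries. Only 0.154% of the genes tested had a change at or below that of Egr1. The log2 change was -2.14 without control 1 and -1.48 without control 2. Its transcript has 57.3% GC, in the quintile of tested genes with the highest GC, where 19.0% of genes rose and 6.18% fell.

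Klf6 (ENSMUSG00000000078, chromosome 13, 5861482 to 5870394, plus strand), a zinc finger factor of the Krüppel-like family, was at 34.5 and 35.3 normalized counts in the knockdown-labelled libraries and at 59.7 and 54.3 in the control-labelled libraries. The replicates of each group lie close together and the groups are well apart. Its log2 change was -0.69 (SE 0.10, 95% interval -0.94 to -0.45, limma adjusted p = 0.00761). Unlike Egr1, Klf6 has a GC-poor transcript (42.4%), in the lowest quintile, where 4.26% of genes rose and 19.3% fell. The part of GC content in these changes was not tested.

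Jund (ENSMUSG00000071076, chromosome 8, 70698949 to 70700616, plus strand) encodes the JUN protein that is present in resting cells and responds least to serum. Jund stood at 354 and 384 normalized counts in the knockdown-labelled libraries and at 175 and 221 in the control-labelled libraries. The groups do not overlap, and the gap between them is larger than the gap within either. The log2 change was 0.90 (SE 0.12, 95% interval 0.62 to 1.18, limma adjusted p = 0.00571). Jund is a gene of 1 exon with 67.1% GC, in the quintile where rises were most frequent. In GENCODE M21 877 of its 1668 exon bases are overlapped by the antisense gene Gm11175, which stood at 108 and 124 against 47.0 and 63.4 and also rose (log2 change 1.07, limma adjusted p = 0.00657). Since the sources used here give no strand setting, reads of the pair over that stretch cannot be told apart.

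Junb (ENSMUSG00000052837, chromosome 8, 84974484 to 84978718, minus strand), the JUN protein that often opposes JUN on growth genes, was at 107 and 112 normalized counts in the knockdown-labelled libraries and at 64.1 and 91.6 in the control-labelled libraries. The groups do not overlap, but the controls lie far apart. With a log2 change of 0.51 (SE 0.16, 95% interval 0.14 to 0.89, limma adjusted p = 0.0564) it did not pass. It passed in edgeR's quasi-likelihood test on the recovered reads (log2 change 0.53, adjusted p = 0.0415), in DESeq2 (adjusted p = 0.0213) and in the authors' deposited table (log2 fold change 0.52, adjusted p = 0.0146). It was not called without a variance trend (limma adjusted p = 0.136) or without the filter on low values (limma adjusted p = 0.0809). In all, 7 of the 14 alternatives called Junb. Its log2 change was 0.26 without control 1 and 0.77 without control 2, where the spread comes from the knockdown-labelled pair alone. Without knockdown 1 it was 0.55, and without knockdown 2 it was 0.48. The gene Prdx2 overlaps 173 of its 2301 exon bases on the other strand.

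Jun (ENSMUSG00000052684, chromosome 4, 95049034 to 95052222, minus strand), the founding member of the family and a target of the JNK kinases, was at 22.4 and 24.1 normalized counts in the knockdown-labelled libraries and at 19.2 and 16.3 in the control-labelled libraries. Its log2 change was 0.37 (SE 0.14, 95% interval 0.04 to 0.71, limma adjusted p = 0.10). The groups did not overlap, and the difference did not pass over all genes. It was not called in any alternative that kept all libraries. Without control 1 its log2 change was 0.49, in a fit that takes its spread from the 2 knockdown-labelled libraries alone. Reads of Jun can mix with those of the antisense gene Junos over 232 of its 3189 exon bases.

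Per length, the JUN family was mostly Jund. In normalized counts per kb of exon, Jund, Junb and Jun were at 221 ± 12.7, 47.8 ± 1.52 and 7.29 ± 0.391 in the knockdown-labelled libraries and at 119 ± 19.6, 33.8 ± 8.46 and 5.57 ± 0.647 in the control-labelled libraries (SD, n = 2 each). The 3 genes summed to 266 and 287 in the knockdown-labelled libraries, against 139 and 178 in the control-labelled libraries. Of that sum, Jund made up 79.8% and 80.3% in the knockdown-labelled libraries, against 75.6% and 74.7% in the control-labelled libraries. Jund thus dominated the family in each library by these counts, with a share slightly higher in both libraries labelled knockdown. The JUN sums and shares carry the limit given above, since reads of Jund and the antisense gene Gm11175 cannot be told apart where they overlap.

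Fos (ENSMUSG00000021250, chromosome 12, 85473890 to 85477273, plus strand), the prototype immediate early gene, was at 9.06 and 7.09 normalized counts in the knockdown-labelled libraries and at 3.75 and 3.62 in the control-labelled libraries. These are 102 and 91 reads against 51 and 16. Both libraries labelled knockdown are higher, with a log2 change of 0.94 (SE 0.20, 95% interval 0.47 to 1.42, limma adjusted p = 0.0199). Leaving out knockdown 1 (log2 change 0.79, limma adjusted p = 0.21) or knockdown 2 (log2 change 1.10, limma adjusted p = 0.0928) ended the call, in fits that take their spread from the 2 control libraries alone. Its GC content of 51.9% places it in the middle quintile, where 8.63% rose and 11.7% fell.

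Fosl1 (ENSMUSG00000024912, chromosome 19, 5447547 to 5455946, plus strand), which encodes the FOS-like protein FRA1, was at 3.82 and 3.504 normalized counts in the knockdown-labelled libraries and at 3.09 and 4.53 in the control-labelled libraries. The groups overlap, and the 95% interval of the log2 change ran from -0.57 to 0.51 (estimate -0.03, limma adjusted p = 0.938). The gene Ccdc85b overlaps 1163 of its 2033 exon bases on the other strand. With no strand setting given, reads of the pair over that stretch cannot be told apart. The shares of the FOS family below carry this limit. Fosb (ENSMUSG00000003545, chromosome 7, 19302696 to 19310051, minus strand) had 4 and 10 reads in the knockdown-labelled libraries and 5 and 2 in the control-labelled libraries. At this depth no difference could be detected for Fosb: the exact 95% Poisson intervals, which cover counting error only, ran from 0.0968 to 0.909 and 0.373 to 1.43 normalized counts in the knockdown-labelled libraries, against 0.119 to 0.859 and 0.0548 to 1.63 in those labelled control.

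**Figure D2:**
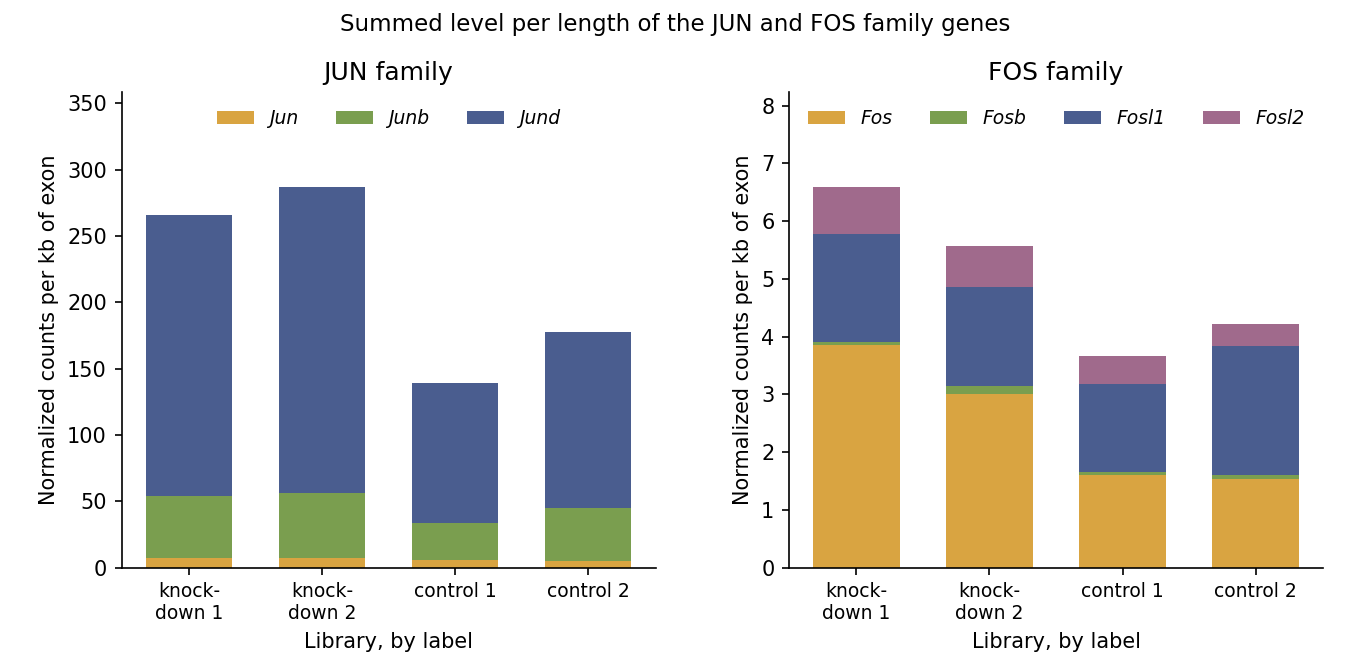
Normalized counts per kb of exon of the JUN family (left) and the FOS family (right), stacked by gene, for the libraries labelled knockdown 1 and 2 and control 1 and 2. The JUN sum is 266 and 287 in the knockdown-labelled libraries against 139 and 178 in those labelled control, and most of each bar is Jund. The FOS bars are far lower and include Fosl2, which is no member. Levels of Jund and Fosl1 may hold reads of the genes that overlap them on the other strand.

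With Fosl2, a FOS gene outside the 10 members, the FOS family summed to 6.58 and 5.56 normalized counts per kb in the knockdown-labelled libraries, against 3.67 and 4.21 in the control-labelled libraries. All 4 FOS sums were thus far below the JUN sums of the same libraries. Fos made up 58.5% and 54.2% of the FOS sum in the knockdown-labelled libraries and 43.5% and 36.5% in the control-labelled libraries. Fosl1, the other main part, made up 28.5% and 31.0% in the knockdown-labelled libraries, against 41.4% and 52.9% in the control-labelled libraries. Fos had the highest share in both libraries labelled knockdown. In the control-labelled libraries the order of Fos and Fosl1 rests on 51 against 42 reads and on 16 against 20, and their exact 95% Poisson intervals overlap, so no order is read there.

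Ier2 (ENSMUSG00000053560, chromosome 8, 84661331 to 84662852, minus strand), a nuclear regulator of 1 exon induced by growth factors, was at 304 and 317 normalized counts in the knockdown-labelled libraries and at 309 and 369 in the control-labelled libraries. The groups overlap, with a log2 change of -0.12 (95% interval -0.36 to 0.12, limma adjusted p = 0.424). Without control 1 the log2 change was -0.25 and passed the test (limma adjusted p = 0.000252), with the spread then taken from the 2 knockdown-labelled libraries alone. Ier3 (ENSMUSG00000003541, chromosome 17, 35821684 to 35822923, plus strand), an ERK-linked survival protein, was at 13.1 and 8.57 normalized counts in the knockdown-labelled libraries and at 4.93 and 5.20 in the control-labelled libraries. Knockdown 1 is the highest of the 4, and the groups do not overlap (log2 change 0.93, SE 0.23, 95% interval 0.40 to 1.47, limma adjusted p = 0.0293). Its GC content of 54.4% lies in the second highest quintile, where 14.2% rose and 8.83% fell. Ier3 was not called without knockdown 1 (log2 change 0.66, adjusted p = 0.282), without a variance trend (adjusted p = 0.0521) or without the filter on low values (adjusted p = 0.0551).

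**Figure D3:**
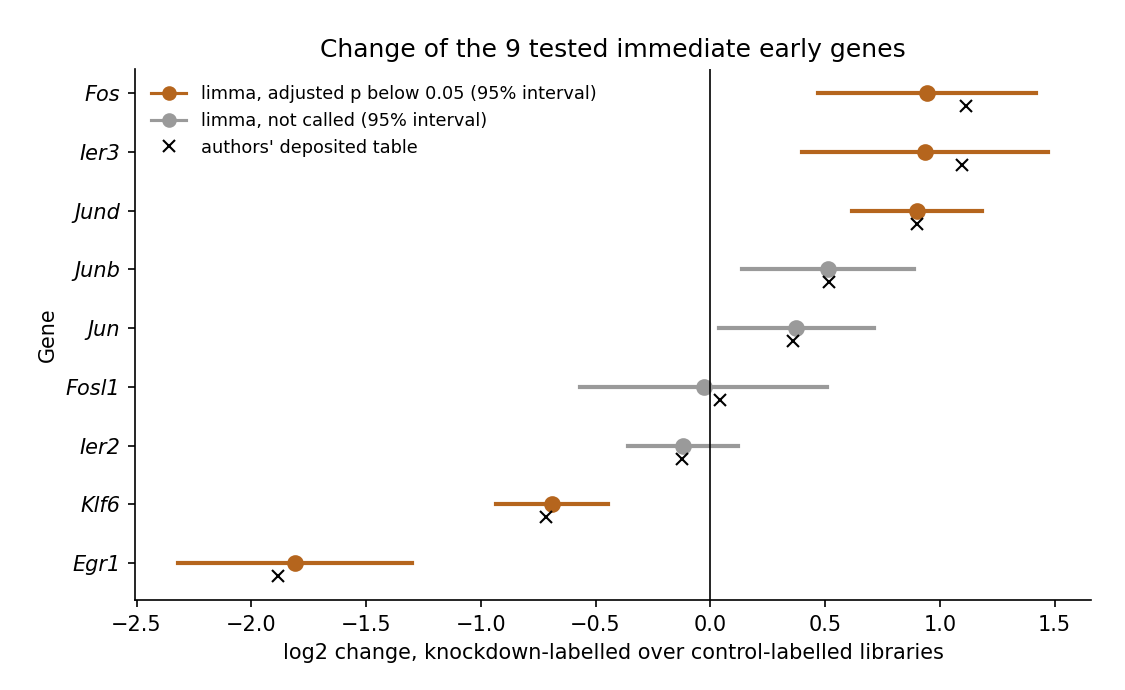
log2 change, libraries labelled knockdown over libraries labelled control, of the 9 members tested, with 95% intervals from limma, brown where the adjusted p is below 0.05 and grey otherwise; crosses give the authors' deposited table. Egr1 at -1.81 and Klf6 at -0.69 lie left of 0, and Jund, Ier3 and Fos lie between 0.90 and 0.94.

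In the comparison the authors deposited, 6 members had an adjusted p below 0.05, 4 higher and 2 lower in the knockdown-labelled libraries. Over all 32592 genes of the authors' deposited table, unexpressed ones included, 5.91% were higher and 5.61% lower by the same rule. Egr1 stood there at a log2 fold change of -1.88 (adjusted p = 7.21e-16) and Klf6 at -0.72 (adjusted p = 1.86e-06). Jund was at 0.90 (adjusted p = 7.74e-06), Fos at 1.12 (adjusted p = 0.00263) and Ier3 at 1.10 (adjusted p = 0.0036) in the authors' deposited table. Jun, at 0.36 with an adjusted p of 0.19 in the authors' deposited table, did not pass there either.

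A ratio of members within a library does not depend on the scaling. The ratio of Jund to Egr1 normalized counts was 20.6 and 26.8 in the knockdown-labelled libraries and 3.84 and 3.06 in the control-labelled libraries. The pair was chosen after its values were seen, from members already called in opposite directions, so its separation adds no evidence to those calls.

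On the scale per kb of exon, the order of the levels in the knockdown-labelled libraries was Jund, Ier2 (204 ± 5.99), Junb, Ier3 (9.56 ± 2.80), Klf6 (7.95 ± 0.119), Jun, Egr1 (3.52 ± 0.457), Fos (3.43 ± 0.592), Fosl1 (1.80 ± 0.109) and Fosb. Ier3 and Klf6 overlap in this order, and so do Egr1 and Fos. In the libraries labelled control the order was Ier2 (223 ± 27.7), Jund, Junb, Egr1 (13.2 ± 4.22), Klf6 (12.98 ± 0.866), Jun, Ier3 (4.48 ± 0.171), Fosl1 (1.87 ± 0.499), Fos (1.57 ± 0.040) and Fosb (SD, n = 2 each). There Egr1 and Klf6 overlap, and so do Fosl1 and Fos. The places of Jund and Fosl1 in both orders carry the limit of overlapping genes given above. Egr1 thus stood next to Klf6 in the control-labelled libraries, below it in control 1 and above it in control 2, and next to Fos in those labelled knockdown.

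The genes whose profile over the 4 libraries lay nearest to a member were found by the distance between log2 profiles centred on their own mean, among 9895 genes. For Egr1, whose own distance from a flat profile was 1.87, they were Ddx58, the viral RNA sensor RIG-I (distance 0.197), Soga3 (0.297) and the bHLH factor gene Msc (0.336). For Fos, with 0.970, they were the exchanger gene Slc24a1 (0.105), Vwf, which encodes von Willebrand factor (0.121), and the complement protease gene C1s1 (0.136). For Jun, with 0.414, they were Arhgef40 (0.00928), Mlst8, an mTOR complex subunit (0.0219), and Phf21b (0.027). With 4 libraries many genes have like profiles, so these are descriptions only.

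Among 44 other primary response genes, 9 rose, 3 fell and 29 did not pass, while Egr2, Egr3 and Nr4a3 were too low to be tested. Their median log2 change was 0.13, against -0.01 over all genes tested, and 29.3% of the 41 tested were called, against the 23.0% of all genes. Phlda1 rose to 84.9 and 81.2 normalized counts in the knockdown-labelled libraries, against 34.7 and 37.3 in the control-labelled libraries (log2 change 1.18, limma adjusted p = 0.00256). Klf4, a pluripotency factor and also an embryonic stem cell marker, fell to 441.1 and 433 in the knockdown-labelled libraries, against 804 and 784 in the control-labelled libraries (log2 change -0.86, limma adjusted p = 0.00256). The IER2-related genes Ier5l and Ier5 rose, Ier5 to 20.0 and 25.1 in the knockdown-labelled libraries, against 8.32 and 5.88 in the control-labelled libraries (log2 change 1.55, limma adjusted p = 0.00575). Like the 10 members, this list held genes that moved in either direction, with more that rose.

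A list of 14 genes, called AP-1 partners here, held further AP-1 partners together with AP-1 coregulators, which are not part of the pair. Of these 14 genes 8 were tested, and 2 rose, 2 fell and 4 did not pass (median log2 change -0.11). So 4 of 8 were called, against 23.0% of all genes tested. Jdp2, a bZIP repressor that binds JUN proteins, fell to 3.995 and 2.88 normalized counts in the knockdown-labelled libraries, against 14.3 and 12.2 in the control-labelled libraries (log2 change -1.69, limma adjusted p = 0.00472). Of the small MAF genes, Mafg fell (log2 change -0.64, limma adjusted p = 0.0134) and Mafk rose (log2 change 0.65, limma adjusted p = 0.0433). Batf, a partner of JUN in immune cells, was called as higher on 15 and 12 reads in the knockdown-labelled libraries, against 2 and 1 in the control-labelled libraries, or 6.72 times as many per unit of effective library size (exact 95% interval for counting error 2.07 to 34.6). The rises of Mafk and Batf were not called in DESeq2, without knockdown 1 or without knockdown 2, where 0 rose and 2 fell. Without a variance trend 1 rose and 1 fell.

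Of 14 genes for SRF, ELK, MRTF, CREB and their coactivators, which switch these genes on, 0 rose, 1 fell and 13 did not pass (median log2 change -0.10). That is 7.14% called, against 23.0% of all genes tested, a difference that was not tested. The CREB relative Atf1 fell to 62.6 and 62.7 normalized counts in the knockdown-labelled libraries, against 81.1 and 100.02 in the control-labelled libraries (log2 change -0.52, limma adjusted p = 0.0232). Without a variance trend in limma 0 of the 14 were called, and with library size as the only scaling 2 rose and 1 fell.

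Of 32 genes of the MAPK route, 31 were tested, and 3 rose, 6 fell and 22 did not pass (median log2 change -0.04). The share called was 29.03%, against 23.0% of all genes tested. The balance of calls depended on the fit: 4 rose and 3 fell in DESeq2, and 4 rose and 2 fell with library size only (median log2 change 0.08). The RAF scaffold Ksr1 rose to 55.9 and 56.4 normalized counts in the knockdown-labelled libraries, against 33.4 and 34.4 in the control-labelled libraries (log2 change 0.71, limma adjusted p = 0.00617). The kinase gene Araf rose too (log2 change 0.44, limma adjusted p = 0.0166). Rps6ka5, which encodes the histone H3 and CREB kinase MSK1, fell to 9.32 and 7.79 in the knockdown-labelled libraries, against 19.6 and 17.4 in the control-labelled libraries (log2 change -1.03, limma adjusted p = 0.00924). Rps6ka2, a kinase of the RSK family, fell by 0.55 on the log2 scale (limma adjusted p = 0.0166). Without knockdown 2, 0 of the 31 were called, without knockdown 1, 2, and without either control library, 19.

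Of 25 feedback and decay regulators, 24 were tested, and 1 rose, 5 fell and 18 did not pass (median log2 change -0.12). With 6 of 24 called, the share in either direction was 25%, against 23.0% of all genes tested. Most of these calls were falls, whereas of all genes tested 10.5% rose and 12.4% fell, a difference that was not tested. The list holds MAPK phosphatases and Sprouty proteins, which dampen the signal, and RNA-binding proteins, among them Elavl1, called as lower, whose protein HuR stabilises AU-rich mRNAs. The ERK phosphatase gene Dusp6 fell to 131 and 103 normalized counts in the knockdown-labelled libraries, against 190 and 248 in the control-labelled libraries (log2 change -0.89, limma adjusted p = 0.0116). Spry4, a Sprouty inhibitor of receptor signalling, fell to 265 and 213 in the knockdown-labelled libraries, against 396 and 576 in the control-labelled libraries (log2 change -1.005, limma adjusted p = 0.0122). Dusp4 fell by 0.70 on the log2 scale (limma adjusted p = 0.0168). The called gene that rose was Zfp36, whose protein destroys AU-rich mRNAs, at 53.0 and 51.8 in the knockdown-labelled libraries, against 32.6 and 22.2 in the control-labelled libraries (log2 change 0.94, limma adjusted p = 0.0136). Without a variance trend 1 rose and 1 fell.

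**Figure D4:**
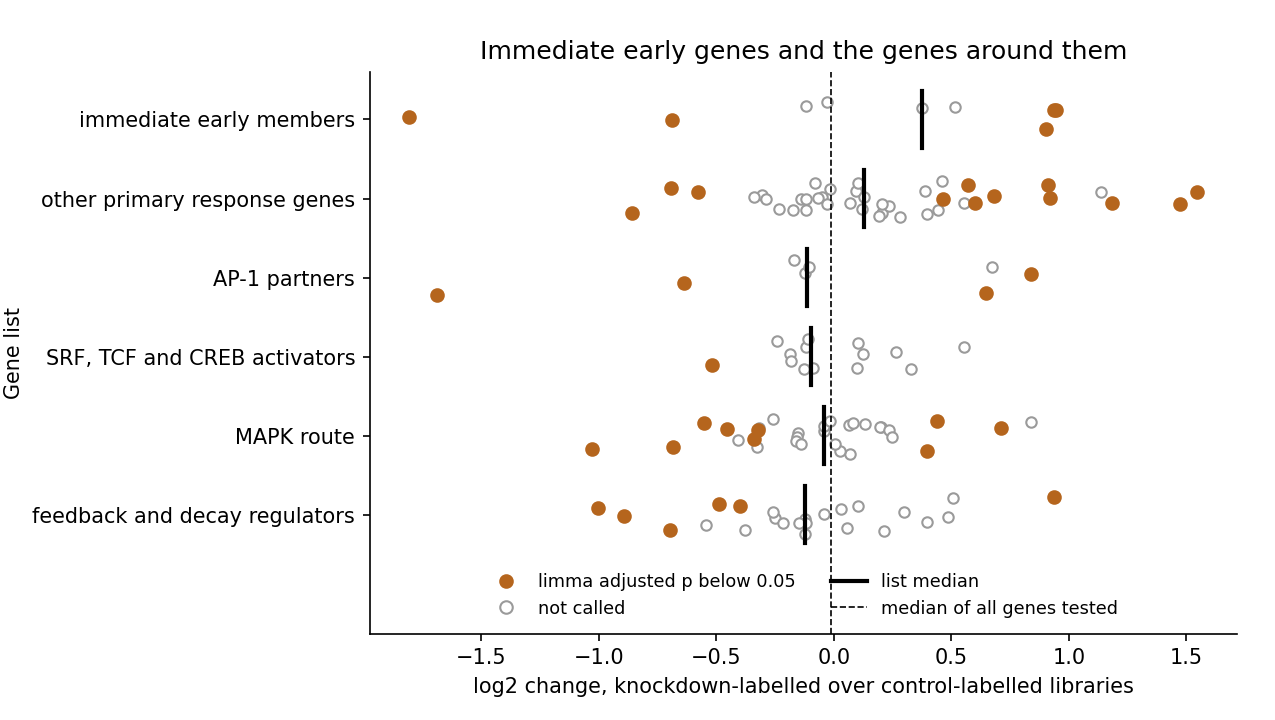
log2 change, libraries labelled knockdown over libraries labelled control, of each tested gene in the member list and 5 lists around it, brown where the limma adjusted p is below 0.05 and open otherwise, with a bar at each list median and a dashed line at the median of all genes tested (-0.01). The members spread from -1.81 to 0.94, and called genes lie on either side of 0 in each list except that of the SRF, TCF and CREB activators, where 1 gene is called.

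**Figure D5:**
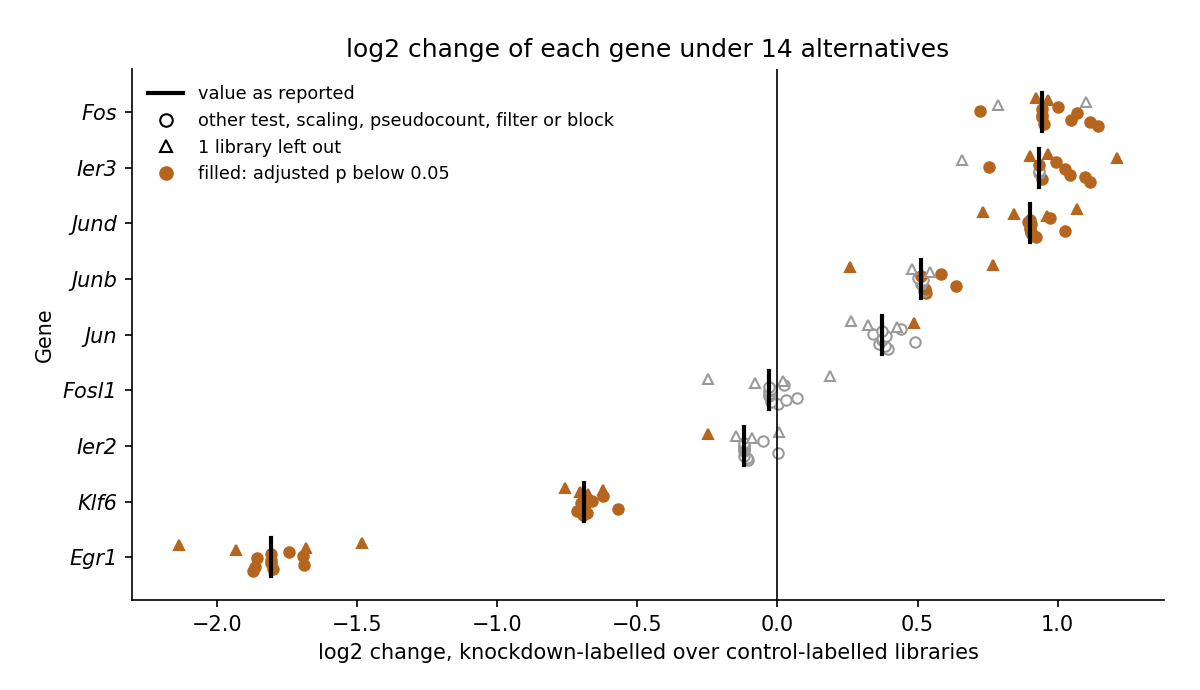
log2 change of the 9 tested members (rows) under 14 alternatives, with triangles where 1 library was left out, circles for other settings, filled symbols where the adjusted p is below 0.05 and a black bar at the value as reported. Egr1, Klf6 and Jund keep filled symbols on 1 side of 0 throughout, and the symbols of Junb are filled in 7 of 14 alternatives.

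Across the 14 alternatives the log2 change of Egr1 lay between -2.14 and -1.48, that of Klf6 between -0.76 and -0.57 and that of Jund between 0.73 and 1.07. These 3 members were called in each alternative, with limma, edgeR or DESeq2 adjusted p up to 0.0306 for Egr1, 0.0482 for Klf6 and 0.0359 for Jund.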

How the data were processed

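The 4 libraries, 2 labelled knockdown and 2 labelled control, were compared by their deposited table. The sources list Bowtie2 2.3.4.3, SAMtools 1.9, HTSeq 0.11.2, edgeR 3.26.8 and build mm9 without roles, per the submitters' processing notes; for annotation and strand setting the sources used here give nothing. The deposited signal behaves as CPM on an effective library size: dividing by the step of 1 read gave whole numbers for 100% of values (tolerance 0.001). Beside it the authors deposited, per the file headers, their comparison as log2 fold change, log2 CPM, a score (likelihood ratio), p-value and adjusted p-value.

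Genes passing filterByExpr (edgeR 4.0.16) on the recovered reads, 14890 in all, were tested with limma 3.58.1 (R 4.3.3) on log2(signal + 1), in the deposited scaling, with a variance trend, two-sided, with Benjamini-Hochberg adjustment over all genes tested and calls below 0.05. The procedure was tested on simulated data with the same spread in both groups. The replicate pairs here differ in spread, so that test does not cover these calls. Alternatives were edgeR's quasi-likelihood test and DESeq2 1.42.0 on recovered reads, 3 other scalings, pseudocounts of 0.25 and 3, no filter, no trend, a replicate block and each library left out. The members and lists were chosen with earlier results of these data known. The text names all members, Eif4a2, up to 4 called genes with the smallest p in each list (up to 2 as values where none was called), and the 3 genes nearest to Egr1, Fos and Jun in profile among genes with a mean of at least 8. Genes that overlap a member, Fosl2, Elavl1 and the 3 primary response genes too low to test are named in addition, chosen after their values were seen. Of the list genes all but 1 (Atf7) matched the table. Annotation, exon lengths, 3′ UTRs and GC content of the longest transcript are from GENCODE M21 (GRCm38), and promoters from RefSeq (GRCm38.p6), a build other than the authors'; no coordinate was converted.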

Additional observations from a re-analysis of the deposited data

How the results depend on the processing

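The members called as higher numbered 3, and between 2 and 4 under the alternatives that kept all libraries; without 1 library they numbered 1 (knockdown 1 left out) to 5 (control 1 left out) and those called as lower 2 to 3. Over all genes 1567 rose and 1851 fell; 967 rose in DESeq2, 996 fell with library size only and 864 fell without a variance trend. Without 1 library the genes that rose ranged from 259 to 3784 and those that fell from 394 to 3940; such a fit takes its spread from the other group alone, and the median absolute log2 gap of replicates was 0.0955 for the knockdown-labelled pair, against 0.198 for the control-labelled pair. Library size only moved the median of all genes to 0.10 from -0.01 on the log2 scale, and 68.4% of its calls rose against 45.8%; there Ier2 turned to 0.00383 and Fosl1 to 0.0683. Fosl1 also turned, to 0.0320 in edgeR, 0.00223 in DESeq2 and 0.0249 with upper-quartile scaling, and none of these passed. Without 1 library Fosl1 ranged from -0.246 (control 1 left out) to 0.187 (control 2 left out), and was 0.0190 without knockdown 2; Ier2 ranged from -0.246, which passed, to 0.00745, for the same 2 libraries. The cause was not tested.

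Of the AP-1 partners 2 were called in DESeq2 and 2 without a variance trend, against 4. Of the SRF, TCF and CREB activators edgeR called 2, scaling by the upper quartile 2, scaling by library size alone 3 and the fit with no trend 0, against 1. Without a trend 4 genes of the MAPK route (against 9) and 2 feedback and decay regulators (against 6) were called. Without 1 library the calls ranged from 5 to 24 among other primary response genes, 2 to 7 among AP-1 partners, 0 to 5 among activators, 0 to 19 in the MAPK route and 3 to 15 among feedback and decay regulators, each time lower without a knockdown-labelled library and higher without a control-labelled one. Both groups carry replicate numbers 1 and 2. The gaps between replicates 1 and 2 in the 2 groups were nearly uncorrelated (r = 0.0356 across genes, which are not independent replicates). With 1 gap in each group, this cannot show whether same-numbered libraries were paired. With the replicate block 2252 genes rose and 2380 fell, and of the members 4 rose, Junb among them (limma adjusted p = 0.000528), and 2 fell. Depth limits Fosb and the low levels of Fos, Fosl1 and Ier3, most in control 2, where 3 reads are worth 0.679 normalized counts.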
